A study of Homo sapiens with 3 samples.

Results

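The genes described here are 39 components and regulators of DNA replication and S phase, the phase of the cell cycle in which the genome is copied. They are a list of gene symbols that uses no measured value as a criterion, though it was drawn up with earlier results of these data known. Where several probe sets carried a gene's symbol alone, the brightest on average stood for the gene. All 39 were found among the 19775 genes that could be named in this way. Total RNA was measured on 3 short-oligonucleotide arrays, 1 per group, from cultures whose label gives the liver tumour line HepG2, kept in medium with serum. The cells were stably transfected with an Hsp27 ORF vector (group ORF), an Hsp27 shRNA vector (group shRNA) or a control vector (group control). Hsp27, a small heat shock protein, is the product of HSPB1. The title of the series links it to metastasis of hepatocellular carcinoma, and the comparisons address whether replication genes differ when a vector is meant to raise or lower it. The labels do not say whether each line was a clone or a pool, name no promoter, and give no cell density or cell cycle state at harvest. With 1 array per group no difference has a replicate check, and no p-value is given.

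Replication starts at origins bound by the origin recognition complex (ORC), to which CDC6 and CDT1 bring the ring-shaped MCM2-7 helicase. In S phase CDC45 and the GINS complex join MCM2-7 and switch it on, with MCM10 needed for the step. Primase and DNA polymerase alpha then lay short primers, the RFC complex loads the sliding clamp PCNA, polymerases delta and epsilon extend, and FEN1 and LIG1 join the fragments of the lagging strand. Most of these genes are transcribed at the transition from G1 to S by E2F factors once cyclin E and its kinase have inactivated the retinoblastoma protein, and tumour lines in culture express them strongly.

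The arrays did not bear out the ORF label by HSPB1, nor the liver line label by hepatocyte markers. The log2 signal of HSPB1 was 13.11 with ORF, 13.03 with shRNA and 13.25 with control. Against control the ratio was −0.14 for ORF and −0.22 for shRNA, and ORF lay 0.08 above shRNA. The ORF array was thus not above control and the shRNA array was lowest, and the groups are called by their labels. At this signal the noise SD between probe sets, described below, was 0.08 for ORF and 0.12 for shRNA against control. It was 0.08 between ORF and shRNA, as large as their gap. Of genes with a mean log2 signal of at least 13, 71.3% were below control on the shRNA array, with a median of −0.07. Of 8 hepatocyte markers with a named probe set (ALB, AFP, TTR, APOA1, APOB, FGB, SERPINA1 and TF), 1 averaged above the floor, a pooled median log2 signal of 5.93 below which signals were treated as not measured. This was TF, which read 5.74 with ORF, 5.59 with shRNA and 6.51 with control, above the floor on control only. The summed linear signal of the 8 was 289 with ORF, 268 with shRNA and 319 with control. All 3 mesenchymal markers and 3 of 4 epithelial markers averaged above the floor, as did 5 of 7 fibroblast and stellate cell markers and 0 of 3 leukocyte markers. The epithelial sum was 18864 with ORF, 19257 with shRNA and 25887 with control, the mesenchymal sum 18318, 19484 and 18026, the fibroblast and stellate sum 10445, 12971 and 12503, and the leukocyte sum 139, 82.5 and 55.2. Against control the log2 ratios for ORF and shRNA were −0.83 and −0.58 for KRT8 and 0.42 and 0.84 for FN1. COL1A1 gave 0.15 and 0.80, and DCN −0.47 and −0.90. These 4 were named after their values were seen, and each reached 1.5-fold in a comparison. Of the other epithelial, mesenchymal, fibroblast and stellate markers averaging above the floor, EPCAM gave 0.09 and 0.06 and KRT18 −0.28 and −0.37. VIM gave 0.00 and 0.03, CDH2 −0.11 and 0.07, and COL3A1 −0.53 and −0.35. LUM gave −0.27 and 0.05, and ACTA2 −0.24 and −0.04. For shRNA KRT8, FN1, COL1A1 and DCN were farther from 0 than every replication gene but E2F1. For ORF those other than COL1A1 were farther from 0 than every replication gene. Because these 4 were picked for large ratios, this is not a like comparison. The part of the markers in the results below was not tested. The 4 markers of cycling cells (MKI67, TOP2A, CCNB1 and CDK1) summed to 28204, 28895 and 29266 in the same order of arrays. The sum is set mostly by the brighter genes. Against control the log2 ratios for ORF and shRNA were −0.23 and −0.46 for MKI67, the dimmest of them. TOP2A gave 0.00 and −0.12, CCNB1 −0.03 and −0.005, and CDK1 −0.08 and 0.06. In bulk RNA, fewer cells in S phase and less RNA per cell cannot be told apart.

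The replication genes were strongly and almost evenly expressed on the 3 arrays. Their log2 signals ran from 7.97 to 14.51, and 38 of the 39 had a mean at or above 8.63, the 75th percentile of all probe sets pooled, the exception being E2F1. Such genes, 7849 of the 19775 named and of the 12664 above the floor on at least 1 array, are called genes of high mean signal. The percentile is over probe sets while each gene stands by its brightest, so genes pass it more often than probe sets do. The gap between the highest and the lowest of a gene's 3 signals had a median of 0.19 over the members and 0.19 over genes of high mean signal, and it ranged among the members from 0.01 for RFC5 to 0.98 for E2F1. Signals of different genes come from different probes and are not ranked against each other.

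**Figure D1:**
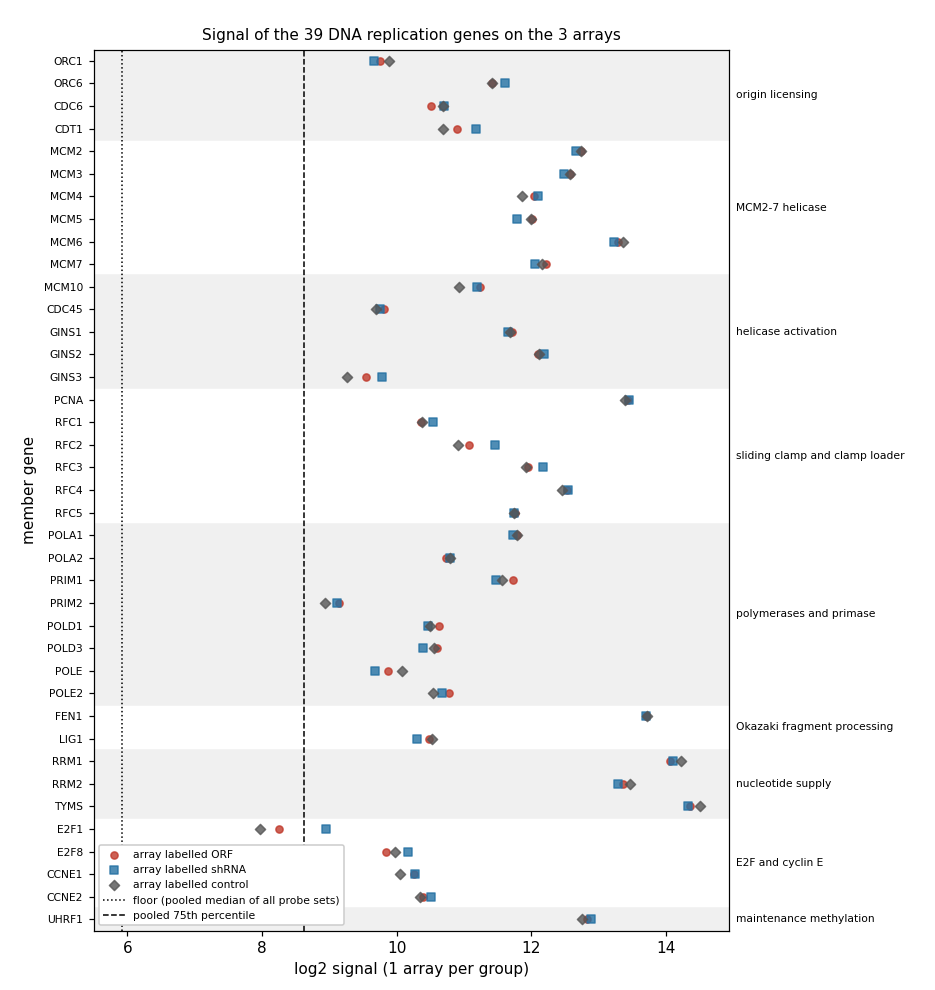
Log2 signal of each of the 39 genes on the arrays labelled ORF (circles), shRNA (squares) and control (diamonds), with 1 array per group, ordered by role. The 3 symbols of a gene spread over a median of 0.19, and E2F1, the only gene with a mean under the 75th percentile line, spreads over 0.98.

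A member was counted as higher where its log2 ratio reached 0.32, which is 25% higher, and as lower at −0.32, which is 20% lower. For ORF against control, 0 of 39 members were counted as higher and 0 as lower, where 9.67% and 9.28% of the 12664 genes above the floor on at least 1 array were, and 4.98% and 4.31% of genes of high mean signal. The median log2 ratio of the members was 0.03, beside 0 over all genes above the floor, and the members ranged from −0.22 (POLE) to 0.31 (MCM10). For shRNA against control, 4 members were higher (E2F1, RFC2, GINS3 and CDT1) and 1 was lower (POLE), beside 11.4% and 11.4% of all genes and 7.08% and 7.16% of genes of high mean signal. The median was 0.03, beside −0.01 over all genes. For ORF against shRNA, 0 members were higher and 3 lower (E2F1, RFC2 and E2F8), beside 9.82% and 9.54% of all genes and 5.26% and 4.80% of genes of high mean signal, with a median of 0.01 beside 0.01. In each of these 6 counts the share of members was below that of all genes above the floor. Against genes of high mean signal it was above for the 4 members higher with shRNA than control (10.3% of members) and for the 3 lower with ORF than shRNA (7.69%), and below for the others. When arrays were scaled to equal medians, the split of all genes for ORF against shRNA moved to 7.04% higher and 12.8% lower, and that of the members to 0 and 4. At 1.5-fold, in either direction, 0 members were past the threshold for ORF against control, 1 (E2F1) for shRNA against control and 1 (E2F1) for ORF against shRNA, beside 5.86%, 6.89% and 5.32% of genes above the floor. Of the 7849 genes of high mean signal, 141, 213 and 128 were past it, smaller shares than among genes above the floor.

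The arrays give 1 measure of technical error, the disagreement between log2 ratios of different probe sets of the same gene with like signals. This noise SD, which leaves out all variation between cultures, ranged over the members from 0.08 to 0.24 for ORF against control, from 0.12 to 0.27 for shRNA against control, and from 0.08 to 0.23 between ORF and shRNA. Past 2 noise SDs stood 1 member (MCM10) for ORF against control, 5 (CDT1, GINS3, RFC2, POLE and E2F1) for shRNA against control and 3 (CDT1, RFC2 and E2F1) for ORF against shRNA. Among genes of high mean signal the shares past 2 noise SDs were 13.8%, 10.2% and 10.3%. Of the members, 2.56%, 12.8% and 7.69% were past it, fewer than the background except for shRNA against control. The control array is shared by both comparisons with control, so their ratios are given side by side and not as independent results.

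**Figure D2:**
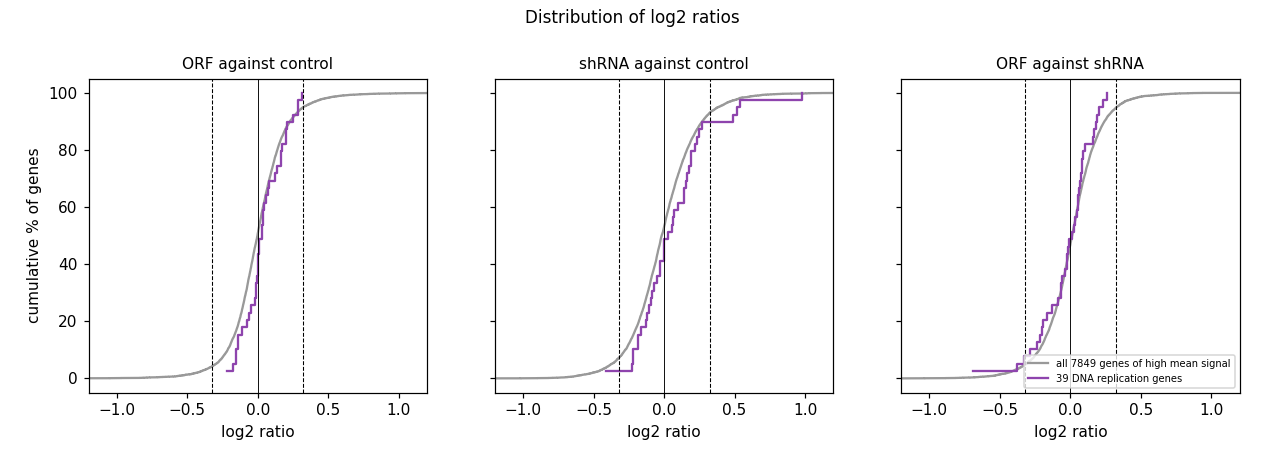
Cumulative percent of genes (vertical) by log2 ratio (horizontal) for the 39 members and the 7849 genes of high mean signal, 1 panel per comparison, with dashed lines at 25% higher and 20% lower. The members lie inside both dashed lines for ORF against control, while 4 members lie to the right of the upper line for shRNA against control.

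E2F1 stood furthest apart, but only in 1 of its 2 probe sets. E2F1 is the transcription factor that activates many of the other members at the entry into S phase. Its brighter probe set read 8.25 for ORF, 8.95 for shRNA and 7.97 for control, linear signals of 305, 493 and 250. The shRNA array was highest and the control array lowest, with a log2 ratio to control of 0.98 for shRNA (noise SD 0.26) and 0.29 for ORF (noise SD 0.24). Between ORF and shRNA it was −0.69 (noise SD 0.23). The other E2F1 probe set read 7.90, 7.89 and 8.01, which puts both vector arrays slightly below control, at −0.11 for ORF and −0.12 for shRNA. The 2 probe sets therefore differed in direction, and their shRNA ratios lay 1.10 apart, the widest gap in that comparison among the 21 members that had 2 or more usable probe sets. E2F8, a repressor of the same family, read 9.84, 10.17 and 9.97 in its single probe set. It was highest with shRNA and lowest with ORF, with ratios of −0.33 for ORF against shRNA (noise SD 0.17), 0.19 for shRNA against control and −0.14 for ORF against control. Cyclin E genes differed less: CCNE1 read 10.25, 10.28 and 10.05, and CCNE2 10.39, 10.52 and 10.35. All 4 members of this role were above control on the shRNA array in the brighter probe set, with a median ratio of 0.21. Of the 7849 genes of high mean signal, 3682 were above control on that array.

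In origin licensing, CDT1, which loads the MCM helicase, was the member that differed. It read 10.89 for ORF, 11.18 for shRNA and 10.69 for control, so the shRNA array was highest and control lowest, with ratios to control of 0.49 for shRNA (noise SD 0.17) and 0.20 for ORF (noise SD 0.13). Its second probe set read 9.17, 9.13 and 9.09 and gave 0.04 and 0.08. ORC1, the largest ORC subunit, read 9.76, 9.67 and 9.89, lowest with shRNA, at −0.22 against control (noise SD 0.23). ORC6, another ORC subunit, read 11.41, 11.61 and 11.41, with only the shRNA array apart, at 0.19 (noise SD 0.18). CDC6, the loading factor, read 10.51, 10.71 and 10.68, with the ORF array lowest at −0.17 against control (noise SD 0.13). Its second probe set gave −0.02 for that ratio.

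The subunits of the MCM2-7 helicase stayed close together. For ORF against control they ranged from −0.08 (MCM6) to 0.17 (MCM4), with a median of 0.01. On the shRNA array 5 of the 6 were below control, at −0.22 for MCM5, −0.13 for MCM6, −0.11 for MCM7, −0.10 for MCM3 and −0.08 for MCM2, and MCM4 was above, at 0.23. Among genes of high mean signal 53.1% were below control on the shRNA array. MCM6 read 13.29 with ORF, 13.23 with shRNA and 13.36 with control. MCM5 read 12.01, 11.78 and 12.00. MCM4 read 12.03, 12.10 and 11.87, but its 4 probe sets above the floor disagreed on the shRNA ratio, at 0.23, −0.12, 0.12 and −0.20, while for ORF they gave 0.17, 0.31, 0.21 and 0.12. The second probe set of MCM5 gave 0.02 for shRNA against control, and those of MCM6 and MCM7 gave −0.08 and −0.05. None of the 6 subunits reached the 25% or 20% threshold in any comparison in the probe set used.

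Among the genes that activate the helicase, MCM10 and GINS3 were above control on both other arrays. MCM10, named here after its values were seen, read 11.24 with ORF, 11.19 with shRNA and 10.93 with control, which are ratios of 0.31 (noise SD 0.11) and 0.27 (noise SD 0.18). Its other probe sets read 9.73, 9.87 and 9.41, and 9.67, 9.35 and 9.03. All 3 probe sets were thus lowest on control, with ratios of 0.31, 0.32 and 0.64 for ORF and 0.27, 0.46 and 0.32 for shRNA. GINS3, a subunit of the GINS complex, read 9.55, 9.78 and 9.26, with ratios of 0.29 for ORF (noise SD 0.18) and 0.52 for shRNA (noise SD 0.23). The second GINS3 probe set had the same direction at a smaller size, reading 9.30, 9.25 and 9.11, or 0.18 and 0.13. GINS1 read 11.72, 11.65 and 11.68, GINS2 12.10, 12.18 and 12.12, and CDC45 9.81, 9.75 and 9.69, each within its noise SD of control. GINS4, the fourth GINS subunit and outside the 39, read 8.08, 7.79 and 7.61. Its ratios were 0.47 for ORF (noise SD 0.28) and 0.18 for shRNA (noise SD 0.32), short of the 1.5-fold used to name genes of its list. It had 2 probe sets above the floor, and only the brighter is given.

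Of the clamp and its loader, RFC2 differed and PCNA did not reach the threshold. PCNA, the ring that tethers polymerases to DNA, read 13.43 for ORF, 13.46 for shRNA and 13.39 for control, within 0.07 of each other. RFC2, a small subunit of the clamp loader, read 11.08, 11.45 and 10.92, highest with shRNA, at 0.54 above control (noise SD 0.18), while ORF was 0.16 above control (noise SD 0.11) and −0.38 against shRNA (noise SD 0.15). RFC2 was the only member called past the threshold for shRNA against control whose second probe set was past it too: that probe set read 10.82, 10.90 and 10.57, or 0.33 for shRNA and 0.25 for ORF. Between ORF and shRNA the second probe set gave −0.08, which is not past the threshold. RFC3 read 11.96, 12.18 and 11.93, at 0.25 for shRNA against control (noise SD 0.14), but its other probe sets gave −0.04 and 0.13. RFC1, the large subunit, read 10.37, 10.53 and 10.38, RFC4 12.53, 12.55 and 12.45, and RFC5 11.76, 11.75 and 11.75. In this role 5 of 6 members were above control on the shRNA array, with a median of 0.13, beside 3682 of the 7849 genes of high mean signal.

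The polymerases and primase gave small differences in both directions. POLE, the catalytic subunit of polymerase epsilon, read 9.87 for ORF, 9.68 for shRNA and 10.09 for control. Control was highest and shRNA lowest, with ratios of −0.22 for ORF (noise SD 0.15) and −0.41 for shRNA (noise SD 0.20), and POLE had no other probe set. POLE2, the second subunit of the same enzyme, lay the other way, at 10.78, 10.68 and 10.53, or 0.25 for ORF (noise SD 0.13) and 0.14 for shRNA (noise SD 0.17). The primase subunit PRIM1 read 11.73, 11.47 and 11.56, highest with ORF, and its partner PRIM2 read 9.14, 9.11 and 8.94. The catalytic subunit of polymerase alpha, POLA1, read 11.78, 11.73 and 11.78. POLA2, its partner subunit, read 10.73, 10.80 and 10.80, but its 3 usable probe sets disagreed, at −0.06, −0.29 and 0.72 for ORF against control and 0.00, −0.10 and 0.65 for shRNA against control. For polymerase delta, POLD1 read 10.64, 10.47 and 10.50 and POLD3 10.59, 10.39 and 10.55. For ORF against shRNA 7 of these 8 genes were above 0, from 0.03 to 0.26, with a median of 0.14. None reached the threshold. Of the 7849 genes of high mean signal, 4161 were above 0 in that comparison. With arrays scaled to equal medians, POLA1 (−0.01) and PRIM2 (−0.04) fell below 0.

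Nucleotide supply and fragment joining gave small differences, and none reached the threshold. FEN1, the flap nuclease, read 13.70 for ORF, 13.71 for shRNA and 13.71 for control. LIG1, the ligase, read 10.47, 10.30 and 10.52, lowest with shRNA at −0.23 against control (noise SD 0.19). The ribonucleotide reductase subunits read 14.07, 14.11 and 14.23 for RRM1 and 13.36, 13.28 and 13.47 for RRM2, and TYMS, thymidylate synthase, read 14.36, 14.33 and 14.51. In the probe sets used, all 3 of these were highest on the control array. Ratios ran from −0.16 to −0.11 for ORF (noise SD 0.08) and from −0.19 to −0.12 for shRNA (noise SD 0.12). Divided by its noise SD, the ORF ratio was −1.98 for RRM1, −1.96 for TYMS and −1.44 for RRM2. The second probe set of TYMS read 12.08, 11.95 and 12.24, at −0.17 and −0.29. The second of RRM2 read 12.80, 12.62 and 12.82, at −0.02 and −0.20. The second probe set of RRM1 read 10.92, 10.82 and 10.90, highest with ORF, at 0.01 and −0.08. The 690 genes with a mean log2 signal of at least 13 had medians of −0.06 for ORF and −0.07 for shRNA against control. Of these genes 74.9% and 71.3% were below 0. Whether this bears on TYMS, RRM1 and RRM2 was not tested. After loess centring, which takes out the typical ratio at each signal level, TYMS was at −0.06 and −0.08. RRM1 was then at −0.08 and −0.03, and RRM2 at −0.06 and −0.14. UHRF1, which recruits the maintenance methyltransferase to newly copied DNA, read 12.82, 12.89 and 12.75, with ratios of 0.07 and 0.14.

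**Figure D3:**
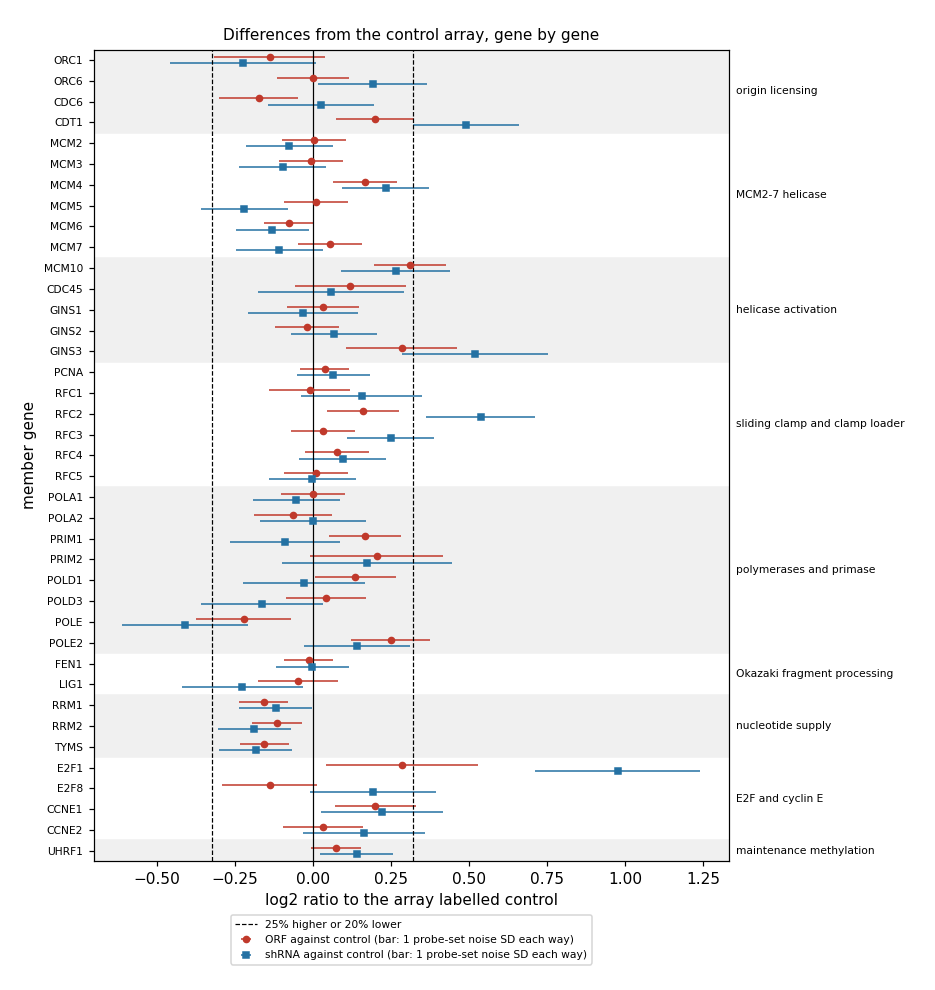
Log2 ratio to the control array (horizontal) of each of the 39 genes for ORF (circles) and shRNA (squares), with bars of 1 probe-set noise SD each way and dashed lines at 25% higher and 20% lower. No ORF ratio passes a dashed line, and the shRNA ratios of CDT1, GINS3, RFC2 and E2F1 pass the upper one and that of POLE the lower one.

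Comparing probe sets of the same gene showed how far single ratios could be read. Of the 21 members with 2 or more probe sets whose mean was above the floor, 13 agreed in sign across all of them for ORF against control, 12 for shRNA against control and 8 for ORF against shRNA, which are 61.9%, 57.1% and 38.1%. Over all 5944 genes with 2 or more such probe sets the shares were 43.7%, 44.4% and 43.6%. These genes were not matched to the members in signal, and the noise SD is larger at low signal. The shares are therefore not a like comparison. The remaining 18 members had 1 probe set, and no signs could be compared for them. Of the 4 genes higher with shRNA, RFC2, GINS3 and CDT1 kept their direction in the second probe set and E2F1 did not.

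**Figure D4:**
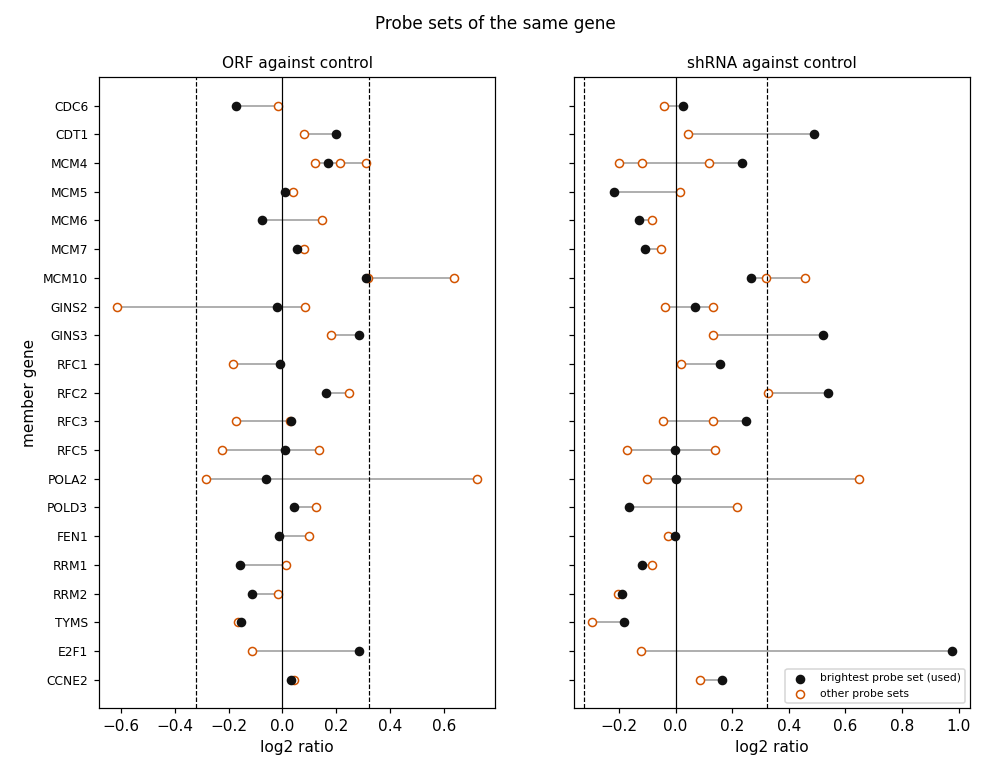
Log2 ratio to control of every usable probe set (mean at or above the floor) for the 21 members with 2 or more, with filled symbols for the probe set used and open symbols for the others, and dashed lines at 25% higher and 20% lower. The 2 probe sets of E2F1 lie 1.10 apart for shRNA against control, while all 3 of MCM10 lie to the right of 0 in both panels.

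Upstream sequences are shown for the 5 members past the threshold for shRNA against control, for MCM10, and for MCM6, which was below the threshold in each comparison and holds the most E2F motif matches of those shown. They come from RefSeq (GRCh38.p14) and run 5′ to 3′ on the gene's strand, from 180 bases before the start of transcription to 10 after it. Capitals mark matches to the E2F motif, searched on both strands as TTTCCCGC, TTTCGCGC, TTTGCCGC and TTTGGCGC in windows of 250 bases before to 50 after the start.
E2F1 (chr20:33686376-33686565, minus strand): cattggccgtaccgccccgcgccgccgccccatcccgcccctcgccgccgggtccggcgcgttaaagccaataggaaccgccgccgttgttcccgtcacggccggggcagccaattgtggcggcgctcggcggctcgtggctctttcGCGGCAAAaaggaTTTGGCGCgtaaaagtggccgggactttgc
CDT1 (chr16:88803609-88803798, plus strand): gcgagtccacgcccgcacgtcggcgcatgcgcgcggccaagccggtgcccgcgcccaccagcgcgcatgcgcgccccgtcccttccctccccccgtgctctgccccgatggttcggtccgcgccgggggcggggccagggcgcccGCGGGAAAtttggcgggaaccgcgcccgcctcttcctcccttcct
GINS3 (chr16:58392291-58392480, plus strand): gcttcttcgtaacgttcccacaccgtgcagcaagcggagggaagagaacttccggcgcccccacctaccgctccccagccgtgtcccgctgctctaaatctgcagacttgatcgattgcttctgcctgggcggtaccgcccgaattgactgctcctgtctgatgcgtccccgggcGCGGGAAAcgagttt
RFC2 (chr7:74254390-74254579, minus strand): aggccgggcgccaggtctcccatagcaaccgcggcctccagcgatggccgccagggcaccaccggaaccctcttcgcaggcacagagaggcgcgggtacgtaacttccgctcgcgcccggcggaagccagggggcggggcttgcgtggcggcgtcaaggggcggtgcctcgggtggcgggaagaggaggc
POLE (chr12:132687333-132687522, minus strand): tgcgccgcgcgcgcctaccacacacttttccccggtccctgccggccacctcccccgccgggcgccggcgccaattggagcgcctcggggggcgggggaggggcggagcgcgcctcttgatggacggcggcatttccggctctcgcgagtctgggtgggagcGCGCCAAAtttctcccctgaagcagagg
MCM10 (chr10:13161378-13161567, plus strand): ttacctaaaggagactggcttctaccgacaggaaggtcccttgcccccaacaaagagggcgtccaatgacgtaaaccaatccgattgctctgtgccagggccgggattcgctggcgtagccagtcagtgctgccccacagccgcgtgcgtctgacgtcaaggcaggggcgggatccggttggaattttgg
MCM6 (chr2:135876434-135876623, minus strand): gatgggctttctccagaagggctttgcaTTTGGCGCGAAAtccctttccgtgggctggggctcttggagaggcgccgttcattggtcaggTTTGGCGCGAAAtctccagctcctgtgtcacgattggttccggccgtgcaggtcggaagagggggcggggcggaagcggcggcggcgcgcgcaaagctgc

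The E2F1 window held 2 matches, whose first bases lie at −33 and −20 from the start. CDT1 held 1 at −35, GINS3 1 at −5 and POLE 1 at −18. In MCM6 4 matches overlapped in pairs, on opposite strands, within 2 stretches that begin at −152 and −90. RFC2 and MCM10 held no such letters in their windows. Of the 34 members in the promoter table, 19 held at least 1 match in any listed window, or 55.9%, beside 3.99% of the 27305 genes in the table. MCM4, MCM5, POLD3, E2F8 and CCNE2 were not matched. The 19 members with a match had median log2 ratios of 0.00 for ORF and 0.00 for shRNA against control, and the 15 without a match had 0.08 and 0.06. A match is a run of letters and not a measured binding site.

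Further replication and S phase genes outside the 39 had medians near 0. Of 54 such genes listed, 51 were named on the array and above the floor, with median ratios of 0.02 for ORF and 0.03 for shRNA against control and 0.00 for ORF against shRNA. Counted as higher and lower were 1 and 3 of them for ORF (beside 9.67% and 9.28% of genes above the floor), 2 and 5 for shRNA (11.4% and 11.4%), and 4 and 2 for ORF against shRNA (9.82% and 9.54%). Of the 51 genes 44 were of high mean signal. The shares of all such genes were 4.98% and 4.31%, 7.08% and 7.16%, and 5.26% and 4.80% in the same order. Past 1.5-fold stood MTBP and CHTF18. MTBP, which acts in the firing of origins, read 6.17 for ORF, 7.23 for shRNA and 6.79 for control, ratios of −0.62 and 0.44 to control near the floor (noise SDs 0.41 and 0.43), and its second probe set above the floor gave −0.04 and −0.01. CHTF18, a subunit of an alternative clamp loader, read 8.86, 8.11 and 8.84 in its single named probe set, so that only the shRNA array was low, at −0.73 (noise SD 0.27).

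Genes of the neighbouring cell cycle steps are given for comparison, and no difference between lists was tested. Of 43 G2/M and mitosis genes, 34 were below control on the ORF array and 30 on the shRNA array, with medians of −0.09 and −0.08, where 14 and 19 of the 39 replication genes were below. These are 79.1% and 69.8% of the G2/M genes and 35.9% and 48.7% of the replication genes, beside 50.9% and 53.1% of genes of high mean signal. Of the G2/M genes 9 had a mean of at least 13, as had 6 of the replication genes, and after loess centring 32 and 28 G2/M genes were below 0, with medians of −0.08 and −0.07. Among the G2/M genes 3 were counted as lower for ORF and 5 for shRNA, and 0 and 1 as higher, beside 4.31%, 7.16%, 4.98% and 7.08% of genes of high mean signal. KIF20A, a kinesin of cytokinesis, read 11.66 for ORF, 11.40 for shRNA and 12.10 for control in its single probe set, ratios of −0.45 (noise SD 0.10) and −0.70 (noise SD 0.14). CDC25C, the phosphatase that activates CDK1, read 8.76, 8.60 and 9.18, ratios of −0.43 and −0.59, and its second probe set gave −0.30 and 0.05. Of 24 regulators of the G1 to S transition above the floor, among them D cyclins, CDK inhibitors, retinoblastoma family and E2F genes, 0 reached 1.5-fold in any comparison, and their medians were 0.00 for ORF and 0.00 for shRNA against control. Past 1.5-fold in either direction were 5.86% of genes above the floor for ORF, 6.89% for shRNA and 5.32% for ORF against shRNA. Among the 7849 genes of high mean signal these were 141, 213 and 128. Regulators counted as higher and lower at the 25% and 20% threshold were 1 and 0 for ORF, 1 and 1 for shRNA, and 2 and 1 for ORF against shRNA. The shares of genes above the floor were 9.67% and 9.28%, 11.4% and 11.4%, and 9.82% and 9.54%. Of the 24 regulators 20 were of high mean signal, and the shares of all such genes were 4.98% and 4.31%, 7.08% and 7.16%, and 5.26% and 4.80%. CCND1 (cyclin D1), named after its values were seen, was the 1 counted as higher for ORF and read 10.18, 9.60 and 9.78. ORF thus lay 0.39 above control (noise SD 0.15) and 0.57 above shRNA (noise SD 0.17). Only the brighter of the 2 CCND1 probe sets above the floor is given. Counted for shRNA against control were E2F5, higher at 0.36 (noise SD 0.27), and CDKN1C, lower at −0.40 (noise SD 0.12). CDKN1C was at −0.27 for ORF against control (noise SD 0.08). For ORF against shRNA RBL2 was higher beside CCND1, at 0.33 (noise SD 0.17), and CDKN1A was lower, at −0.37 (noise SD 0.23). These too were named after their values were seen.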

How the data were processed

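Values were taken from the series matrix of 3 arrays, 1 per group. The authors' deposited values are log2 signals of 54675 probe sets. MAS5 is the tool in the submitters' processing notes, and no version, scaling target, detection call or genome build was found beside it. The values fit a log2 scale because their linear 2% trimmed means came to 500.1 on each array. By GEO's platform annotation 41097 probe sets had 1 gene symbol, 1801 several and 11777 none. Of the first, 41043 matched RefSeq's gene table (GRCh38.p14) by gene identifier, and 0 symbols changed.

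Arrays were scaled to equal trimmed means, signals under the pooled median (5.93) were set to that floor, and log2 ratios were taken between arrays, which understates differences near the floor. Thresholds were 1.25-fold (25% higher, 20% lower) and 1.5-fold. The noise SD came from 7219 pairs of probe sets for 1 gene within 1 of each other in mean log2 signal, in 20 bins of signal. With 1 array per group no test was run, and precision is limited by the number of arrays. The 39 members and the other lists were chosen with earlier results of these data known. Members past 1.25-fold, and genes of the further replication, regulator and G2/M lists past 1.5-fold with a mean at or above the floor, were named with their values on each array, as were the brightest and dimmest member of each role, and other members are given by role. GINS4 and the regulators CCND1, E2F5, CDKN1C, RBL2 and CDKN1A were named without reaching 1.5-fold. The comparison of probe sets and the choice of promoters were made after the values were seen. The alternatives were quantile normalization, loess centring, equal medians, leaving out the floor or raising it to the 75th percentile, the median over probe sets, leaving out _x_at and _s_at probe sets, and 1.5-fold. The procedure was tested on simulated data with known changes of 1.5-fold or more in genes of high mean signal. Smaller changes were not simulated, so calls between 1.25-fold and 1.5-fold were not tested in this way. Python 3.11.15, numpy 2.4.6, pandas 2.3.3 and statsmodels 0.14.6 were used.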

Additional observations from a re-analysis of the deposited data

Results flagged for a closer look

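The comparisons leave out probe sets annotated with several genes, and a signal above control appeared in 1 that names PRIM2 (a primase subunit) together with PRIM2BP, a copy of it. This probe set read 7.59 on the log2 scale for ORF, 7.83 for shRNA and 6.84 for control, log2 ratios of 0.75 and 0.99 to control. A second probe set of the same pair above the floor read 8.09, 8.22 and 7.87, ratios of 0.21 and 0.35, and the probe set of PRIM2 alone gave 0.20 and 0.17. Signals of the gene and of the copy cannot be told apart in these probe sets, and the cause of the difference was not tested.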

How the results depend on the processing

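No paired analysis was possible because each group has 1 array, and leaving out a replicate was not possible for the same reason. The counts for ORF against control were 0 higher and 0 lower under all 7 alternatives of scaling, floor and probe set. For shRNA against control 4 members were higher in each of these except with the floor at the 75th percentile, where E2F1 dropped out and 3 were. With the median over probe sets and without _x_at and _s_at probe sets the 4 were MCM10, GINS3, RFC2 and E2F1, without CDT1. POLE was lower in all but 1: without _x_at and _s_at probe sets 30 members remained, POLE not among them, and 0 were lower, while with the median over probe sets 2 were (POLE and CCNE1). For ORF against shRNA 1 member was higher with the median over probe sets (CCNE1) and 1 without _x_at and _s_at probe sets (MCM4). Its 3 lower calls became 2 with the median over probe sets and without _x_at and _s_at probe sets, where RFC2 was lost (−0.23 and −0.08), and 2 with the floor at the 75th percentile, where E2F1 was lost (−0.31). With equal medians CDT1 was added. At 1.5-fold the counts were 1 higher and 0 lower for shRNA against control and 1 lower for ORF against shRNA. The members' medians stayed between −0.05 and 0.07, and those of shRNA against control and ORF against shRNA turned sign under some alternatives (−0.02 for the former with the median over probe sets, and −0.05 for the latter with equal medians). Of 792 single ratios recomputed, 751 moved by less than 1 noise SD and 41 by more, and 0 of those past the threshold turned sign. The noise between probe sets limits differences under about 0.14, its median over members and comparisons.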

Other observations

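Weak probe sets of 2 members read apart from the brighter ones of the same gene. The dimmest POLA2 probe set (the second subunit of polymerase alpha) read 6.65 for ORF and 6.57 for shRNA and was below the floor on control at 5.52, ratios of 0.72 and 0.65 set by the floor, where the brightest gave −0.06 and 0.00. The dimmest GINS2 probe set read 5.68 for ORF, below the floor, 6.67 for shRNA and 6.54 for control. For CCNE1 the 2 probe sets included 1 below the floor, so its median over probe sets rests on a signal that was not measured.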
